A study of Mus musculus with 8 samples.

Results

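Transcripts of 7 genes through which the beta cell reads glucose were followed on 12 probe sets in pancreatic islets of mice. The genes were Slc2a2 (the glucose transporter GLUT2), G6pc2 (the islet glucose-6-phosphatase catalytic subunit), Kcnj11 and Abcc8 (the pore, Kir6.2, and the sulfonylurea receptor, SUR1, of the KATP channel), Cacna1d (the pore of the L-type calcium channel CaV1.3), Trpm5 (a cation channel opened by calcium) and Slc30a8 (the zinc transporter ZnT8 of insulin granules). The probe sets were all those, of 45101 in the series value table, whose platform annotation names one of these genes and no other; the table names 18194 genes in this way. Islets are the clusters of hormone cells in the pancreas, and the RNA came from the inbred strains AKR/J and C57Bl/6J, both on a high-fat diet for 3 months. Each strain gave 4 RNA samples, each from the islets of 2 mice, and 5 µg of RNA from each sample went to an Affymetrix mouse expression array. AKR/J samples carry the array numbers 1, 2, 3 and 4, and C57Bl/6J samples 5, 6, 7 and 8. Age and sex are not in the sources used here, and mice on another diet were not analysed here, so every contrast below sets one strain against the other with the diet held fixed. The labels do not say how the pools were made up beyond the number of mice, and p-values weigh the strain difference against the spread between pools.

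Glucose enters the mouse beta cell through GLUT2, is phosphorylated and metabolised, and the resulting rise in ATP relative to ADP closes the KATP channel. The membrane then depolarises, voltage-gated calcium channels open, and calcium entry triggers the release of insulin. G6pc2 removes the phosphate from glucose-6-phosphate, the reverse of the first step of glycolysis, TRPM5 adds depolarising current once calcium has risen, and ZnT8 loads the granules with the zinc that packs insulin into crystals.

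The tissue label was checked against islet markers. On the log2 scale, which is used for all values below unless stated, Ins2 (insulin) averaged 15.71 ± 0.07 on AKR/J arrays and 15.50 ± 0.05 on C57Bl/6J arrays, and Gcg (glucagon) 15.37 ± 0.11 and 15.36 ± 0.03 (SD, n = 4 each). Markers of the digestive acinar cells were bright on the same arrays. Their summed intensity over 14 tested markers ran from 241022 to 279676 in AKR/J and from 396554 to 408518 in C57Bl/6J, and 14 of 14 were lower in AKR/J. Markers counted as lower or higher had a limma adjusted p under 0.05, as had 8.53% (lower) and 7.79% (higher) of all tested genes. The acinar factor gene Rbpjl was not detected on any array. Of 8 macrophage markers 6 were lower in AKR/J and 0 higher, with sums from 1680 to 2175 against 3064 to 4077. Their log2 differences were uneven, from -1.81 for C1qc to -0.01 for C1qa. Of 8 endothelial markers 3 were higher in AKR/J and 0 lower, and of 3 alpha cell markers 1 was lower and 0 higher. The beta cell sum, given below, did not overlap between the strains and was higher in AKR/J. So were the sums of 3 delta and PP cell markers (37472 to 47545 against 26392 to 34778), with Ppy higher by 0.89 (limma adjusted p = 0.0340). The same held for 8 pericyte and fibroblast markers (8551 to 10757 against 6836 to 8207), with Rgs5 higher by 1.42 and Dcn lower, at -0.85. It held too for 4 neuron and Schwann cell markers (4113 to 4559 against 2982 to 3449). Most of that sum was Snap25, which differed by 0.18 (limma adjusted p = 0.171). Th was higher by 2.58, and S100b and Prph differed by 0.02 and -0.12 (0.826 and 0.378). The sums of 3 liver markers (216 to 286 against 86.6 to 158, Apoa2 higher by 1.08) also did not overlap. Nor did the duct marker Krt7 (1329 to 1502 against 1126 to 1309, limma adjusted p = 0.0779). Gfap, Cps1, Cftr and Muc1 were not detected on any array. Between 43.7% and 48.1% of probe sets were detected per array. The Gapdh control probes at the 3' end, set against those at the 5' end as a log2 ratio, ran from -0.43 to -0.35 in AKR/J and from -0.32 to -0.07 in C57Bl/6J. The same ratio for the actin control ran the other way, from 0.70 to 0.84 in AKR/J and from 0.68 to 0.75 in C57Bl/6J. The part of these cell types and of RNA quality in the results below was not tested.

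Of the 12 probe sets, 1 was lower in AKR/J, that of Slc2a2, 0 were higher in AKR/J, and 11 did not pass the threshold, an adjusted p under 0.05 in limma's fit over 20772 probe sets. That is 8.33% of the members' probe sets, beside 14.3% of all tested probe sets, 7.7% lower and 6.59% higher in AKR/J. By the brightest probe set of each gene, 1 of 7 member genes passed, beside 16.3% of all tested genes. By unadjusted p under 0.05 there were 4 lower, those of Slc2a2, G6pc2, Slc30a8 and the brighter one of Cacna1d, and 0 higher, where 15.9% of all tested probe sets were lower and 14.1% higher by the same measure. All 12 probe sets passed the detection filter, and 11 were detected on 8 of 8 arrays. The 4 arrays of C57Bl/6J all lay above those of AKR/J for 3 of 12 probe sets (Slc2a2, G6pc2 and Slc30a8), and AKR/J lay above for 0 of 12, where among all tested probe sets the shares were 10.6% and 12.3%, together 22.9%.

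**Figure D1:**
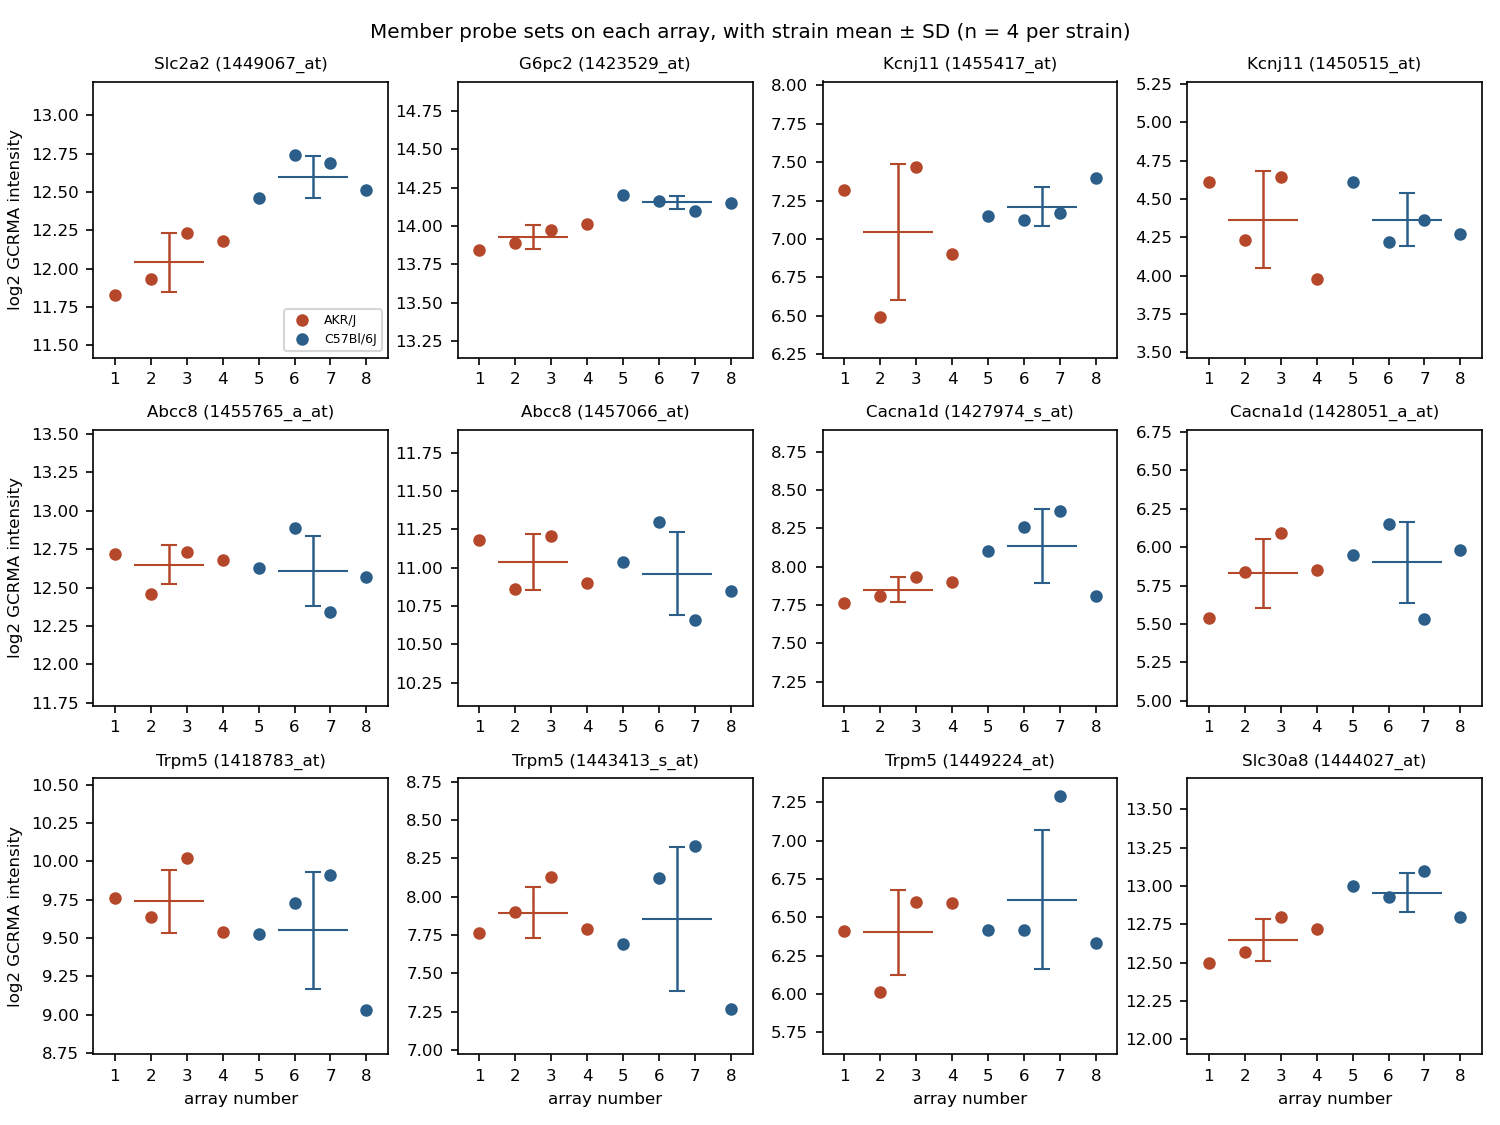
Each panel plots the log2 GCRMA intensity of 1 probe set (y axis, spanning 1.8 log2 units in every panel) against the array number (x axis), AKR/J in red and C57Bl/6J in blue, with bars for the strain mean ± SD (n = 4). The strains separate for Slc2a2, from 11.83 to 12.23 in AKR/J against 12.46 to 12.74 in C57Bl/6J, and overlap for every probe set of Kcnj11, Abcc8, Cacna1d and Trpm5.

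Slc2a2, whose protein carries glucose across the beta cell membrane, was measured by probe set 1449067_at. Its log2 values were 11.83, 11.93, 12.23 and 12.18 on AKR/J arrays 1 to 4 and 12.46, 12.74, 12.69 and 12.51 on C57Bl/6J arrays 5 to 8. Every C57Bl/6J array was above every AKR/J array, and AKR/J arrays 1 and 2 were the lowest. The means were 12.04 ± 0.19 and 12.60 ± 0.14 (SD, n = 4 each), a log2 difference of -0.56 with a standard error of 0.11 and a 95% interval from -0.82 to -0.30 (limma adjusted p = 0.0152). C57Bl/6J was thus 1.47-fold higher, with an interval from 1.23-fold to 1.77-fold. On the linear scale of the per-array files, whose Signal was made separately from the GCRMA values, the readings were 3805.4, 4189.4, 5039.2 and 4833.7 in AKR/J and 6133.2, 7129.3, 7620.1 and 6681.6 in C57Bl/6J. These did not overlap either, with means of 4467 ± 571 and 6891 ± 634, and the log2 difference from normalized Signals was -0.62 (limma adjusted p = 0.0281). With any 1 array left out the difference ran from -0.62 to -0.49 and passed each time (adjusted p from 0.0158 to 0.0464). Arrays 1, 2, 5 and 6 alone gave -0.72 (adjusted p = 0.0737) and arrays 3, 4, 7 and 8 alone -0.40 (adjusted p = 0.187), with 2 arrays per strain in each. Slc2a2 had 1 probe set, so the value rests on that set of probes. In a bulk sample, fewer beta cells and less transcript per beta cell cannot be told apart.

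Of 6 tested beta cell markers, Slc2a2 and Ucn3 (urocortin 3, a peptide of mature beta cells; log2 difference -0.52, adjusted p = 0.00559) were lower in AKR/J. The differences of the other markers were 0.21 for Ins2 (adjusted p = 0.0675), 0.18 for Iapp, the amylin gene (0.0904), 0.41 for Pdx1, a beta cell transcription factor (0.169), and 0.01 for Nkx6-1, another such factor (0.971). The summed intensity of the 6 markers, Slc2a2 included, ran from 111246 to 122593 in AKR/J and from 101602 to 109364 in C57Bl/6J, without overlap. Most of this linear sum was Ins2 and Iapp (log2 means of 15.71 and 15.63 in AKR/J, against 12.04 for Slc2a2). The sum therefore says little about the other markers. All 6 were detected on 8 of 8 arrays.

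G6pc2, the enzyme that turns glucose-6-phosphate back into glucose, was measured by probe set 1423529_at. Its log2 values were 13.84, 13.89, 13.97 and 14.01 in AKR/J and 14.20, 14.16, 14.10 and 14.15 in C57Bl/6J. The strains did not overlap; array 4 was the highest of AKR/J and array 7 the lowest of C57Bl/6J. The means of 13.93 ± 0.08 and 14.15 ± 0.04 (SD, n = 4 each) differed by -0.23 (standard error 0.06, 95% interval -0.37 to -0.08; unadjusted p = 0.00754, limma adjusted p = 0.0516), which did not pass. The Signal readings were 10556.5, 11883.5, 10741.9 and 12483.9 in AKR/J and 13507.9, 13668.9, 14094.9 and 15381.9 in C57Bl/6J, again without overlap. After quantile normalization of the Signals the log2 difference was smaller, at -0.13 (adjusted p = 0.468). The probe set passed with no detection filter (adjusted p = 0.0292) and with trend and robust variance (0.0165), so its side of the threshold depended on the fit.

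The reference bases before the starts of these 2 genes are shown because Slc2a2 carried the difference and G6pc2 acts on the same sugar. The table of RefSeq promoter windows used here (GRCm38.p6) was matched for 4 of the 7 genes, and 250 bases before each start are printed 5′ to 3′ on the plus strand. Slc2a2 has 1 start, at chr3:28697653-28697902 for the window, and G6pc2 has 2, with windows at chr2:69210823-69211072 and chr2:69219699-69219948. Capitals mark matches on either strand to any of 8 short motifs. These were the TATA box TATAAA (in 12.4% of 32851 windows of this length), the homeobox core TAATTA (4.84%), the forkhead motif TGTTTAC (3.17%), its variant TGTTTGC (4.3%), the NeuroD-type E-box CATCTG (14.4%), the palindromic E-box CAGCTG (13.0%), the MAF-type motif TGCTGAC (3.81%) and the GC box GGGCGG (32.7%).
Slc2a2: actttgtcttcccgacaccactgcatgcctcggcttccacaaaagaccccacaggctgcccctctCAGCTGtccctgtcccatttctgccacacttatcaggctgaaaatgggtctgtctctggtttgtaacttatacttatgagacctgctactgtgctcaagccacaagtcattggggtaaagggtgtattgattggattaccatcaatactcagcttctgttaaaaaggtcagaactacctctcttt
G6pc2, upstream start: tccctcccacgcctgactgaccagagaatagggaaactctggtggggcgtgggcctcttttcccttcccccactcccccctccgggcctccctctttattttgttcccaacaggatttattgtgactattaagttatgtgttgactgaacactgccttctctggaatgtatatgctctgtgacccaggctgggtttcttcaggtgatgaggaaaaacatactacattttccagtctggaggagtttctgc
G6pc2, downstream start: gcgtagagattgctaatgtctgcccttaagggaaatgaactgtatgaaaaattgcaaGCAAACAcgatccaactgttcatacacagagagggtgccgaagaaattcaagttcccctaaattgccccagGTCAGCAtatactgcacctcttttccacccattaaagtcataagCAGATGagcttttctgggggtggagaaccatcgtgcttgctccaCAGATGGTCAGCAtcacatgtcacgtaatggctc
The Slc2a2 window held 1 match, the palindromic E-box. The window at the upstream G6pc2 start held 0 matches. The window at the downstream start held 5 matches, the NeuroD-type E-box 2 times, the MAF-type motif 2 times and the forkhead variant 1 time, and the last E-box and MAF-type motif adjoin. These letters are descriptions of the C57BL/6J reference and not measured binding.

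Slc30a8, which supplies granules with zinc, was measured by probe set 1444027_at. Its log2 values were 12.50, 12.57, 12.80 and 12.72 in AKR/J and 13.00, 12.93, 13.10 and 12.80 in C57Bl/6J. The highest AKR/J array (3) and the lowest C57Bl/6J array (8) were level to the printed digits. The means of 12.65 ± 0.14 and 12.96 ± 0.13 (SD, n = 4 each) differed by -0.31 (standard error 0.10, 95% interval -0.53 to -0.09; unadjusted p = 0.0116, limma adjusted p = 0.0672), which did not pass. The Signal readings were 3448.7, 3783.3, 4151.2 and 4191.5 in AKR/J and 5120.9, 4681.6, 5474.9 and 4791 in C57Bl/6J, without overlap. The log2 difference from Signals was -0.37 (adjusted p = 0.0852). Of the alternatives run, the fit with trend and robust variance alone carried it past the threshold (adjusted p = 0.0421).

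Inside AKR/J, arrays 1 and 2 averaged below arrays 3 and 4 for 11 of the 12 probe sets, all but Kcnj11 1450515_at. The difference, arrays 1 and 2 minus 3 and 4, was -0.32 for Slc2a2, -0.12 for G6pc2 and -0.23 for Slc30a8, and it was farthest from 0 for Trpm5 1449224_at (-0.38). Inside C57Bl/6J, arrays 5 and 6 minus arrays 7 and 8 gave 0.00 for Slc2a2, 0.05 for G6pc2 and 0.01 for Slc30a8, and were negative for 2 of 12. No label names a reason for this split, and it was known from earlier results of these data. Neither count was made over all tested probe sets, so neither can be read as particular to these genes. Arrays 1 and 2 each had 43.7% of probe sets detected, against 47.0% on array 3 and 45.2% on array 4. With the split as a term in the fit, adjusted p was 0.0119 for Slc2a2, 0.0535 for G6pc2 and 0.0584 for Slc30a8.

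**Figure D2:**
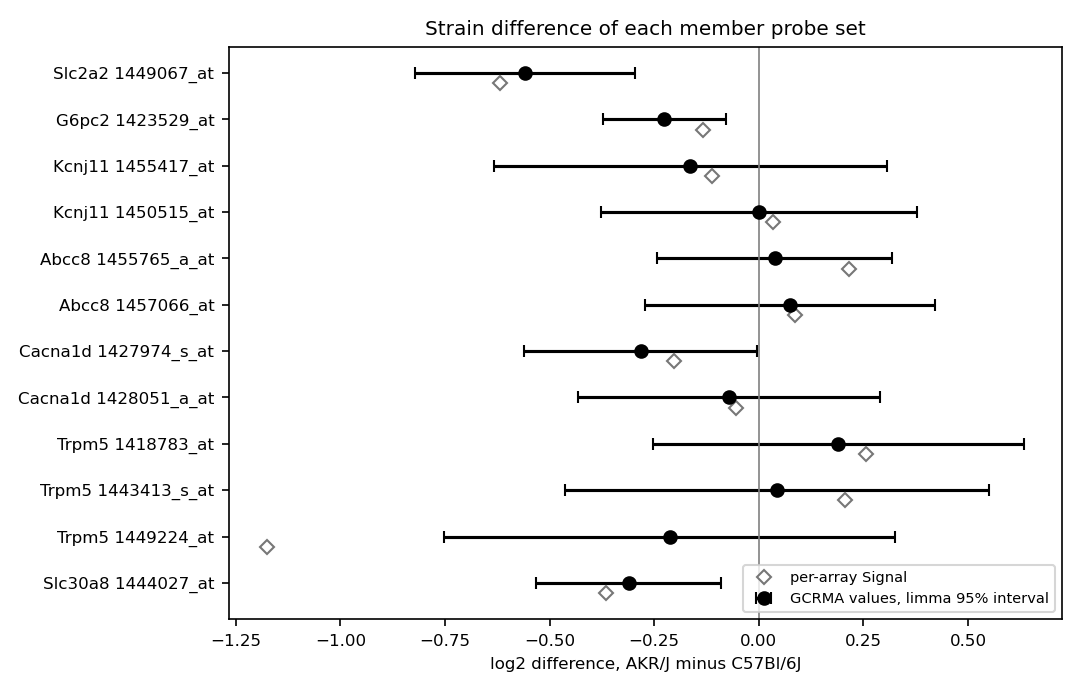
The x axis is the log2 difference, AKR/J minus C57Bl/6J, for the 12 probe sets on the y axis; black points with bars are GCRMA values with limma's 95% interval, and open diamonds are the per-array Signals after quantile normalization. The interval lies below 0 for Slc2a2 (-0.82 to -0.30), G6pc2, Slc30a8 and 1427974_s_at of Cacna1d, and the Signal of Trpm5 1449224_at stands at -1.18.

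The KATP channel genes showed no difference past the threshold. Abcc8, whose product SUR1 senses nucleotides and binds sulfonylurea drugs, had values of 12.72, 12.46, 12.73 and 12.68 in AKR/J and 12.63, 12.89, 12.34 and 12.57 in C57Bl/6J by probe set 1455765_a_at. The strains overlapped fully, with a difference of 0.04 and a 95% interval from -0.24 to 0.32 (limma adjusted p = 0.871). Its other probe set, 1457066_at, read 11.18, 10.86, 11.21 and 10.90 in AKR/J and 11.04, 11.30, 10.66 and 10.85 in C57Bl/6J. Here the difference was 0.08 with an interval from -0.27 to 0.42 (adjusted p = 0.782). On both probe sets array 6 was the highest and array 7 the lowest of the 8. The sign depended on the arrays: with 1, 2, 5 and 6 alone the differences were -0.17 and -0.15, and with 3, 4, 7 and 8 alone 0.25 and 0.30. Without array 7 they were -0.05 and -0.03.

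Kcnj11, which forms the potassium pore, had values of 7.32, 6.49, 7.47 and 6.90 in AKR/J and 7.15, 7.12, 7.17 and 7.40 in C57Bl/6J by probe set 1455417_at. AKR/J spread more widely, with an SD of 0.44 against 0.13, and lay on both sides of C57Bl/6J. The difference was -0.16 with an interval from -0.63 to 0.31 (limma adjusted p = 0.633). The other probe set, 1450515_at, read 4.61, 4.23, 4.64 and 3.98 in AKR/J and 4.61, 4.22, 4.36 and 4.27 in C57Bl/6J, with a difference of 0.00 and an interval from -0.38 to 0.38 (adjusted p = 0.9999). With the wider of these intervals, the C57Bl/6J level of Kcnj11 lay between 0.809 and 1.55 times that of AKR/J, a range that holds a difference of the size seen for Slc2a2. For Abcc8 the corresponding range was 0.747 to 1.21 by 1457066_at, the wider, and 0.801 to 1.18 by 1455765_a_at. Kcnj11 and Abcc8 are neighbours on chromosome 7 in the RefSeq table.

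Cacna1d, the pore subunit of a calcium channel that opens at modest depolarisation, had values of 7.76, 7.81, 7.93 and 7.90 in AKR/J and 8.10, 8.26, 8.36 and 7.81 in C57Bl/6J by probe set 1427974_s_at. Arrays 5, 6 and 7 were above all AKR/J arrays and array 8 was among them. The means of 7.85 ± 0.08 and 8.13 ± 0.24 (SD, n = 4 each) differed by -0.28 (95% interval -0.56 to -0.0034; unadjusted p = 0.0479, limma adjusted p = 0.162). Without C57Bl/6J array 8 the difference was -0.39 and passed (adjusted p = 0.0308). The dimmer probe set, 1428051_a_at, read 5.54, 5.84, 6.09 and 5.85 in AKR/J and 5.95, 6.15, 5.53 and 5.98 in C57Bl/6J, with a difference of -0.07 (interval -0.43 to 0.29; adjusted p = 0.803). The strains overlapped there and array 7, the highest C57Bl/6J array of the other probe set, was the lowest of the 8. The 2 probe sets therefore did not rank the C57Bl/6J arrays alike.

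Trpm5 had 3 probe sets and no difference past the threshold. The brightest, 1418783_at, read 9.76, 9.64, 10.02 and 9.54 in AKR/J and 9.53, 9.73, 9.91 and 9.03 in C57Bl/6J, a difference of 0.19 (95% interval -0.25 to 0.63; limma adjusted p = 0.552). Probe set 1443413_s_at read 7.76, 7.90, 8.13 and 7.79 in AKR/J and 7.69, 8.12, 8.33 and 7.27 in C57Bl/6J, a difference of 0.04 (interval -0.46 to 0.55; adjusted p = 0.919). On both, array 8 was the lowest of the 8 arrays, and array 7 was the highest of C57Bl/6J. The third, 1449224_at, was detected on 1 of 4 AKR/J and 3 of 4 C57Bl/6J arrays and read 6.41, 6.01, 6.60 and 6.59 against 6.42, 6.42, 7.29 and 6.33. Its difference was -0.21 (interval -0.75 to 0.33; adjusted p = 0.585) and had the opposite sign to the other probe sets; without array 7 it was 0.01. From Signals it was -1.18 (adjusted p = 0.225), with readings of 89.8, 15.3, 95.2 and 59.3 in AKR/J and 137.9, 94.6, 176.2 and 85.7 in C57Bl/6J. Tuft cells of epithelia also express Trpm5, and their markers Pou2f3, Avil and Il25 were not detected on any array. Of 3 tested tuft cell markers, Trpm5 among them, 1 was higher in AKR/J (Dclk1, 0.68, adjusted p = 0.0430) and 1 lower (Alox5ap, -0.63, adjusted p = 0.0206). Their summed intensity ran from 878 to 1140 in AKR/J and from 704 to 1158 in C57Bl/6J. Most of that sum was Trpm5 itself (log2 mean of 9.74 in AKR/J, against 6.65 for Alox5ap and 4.38 for Dclk1). It is therefore no separate measure of tuft cells.

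**Figure D3:**
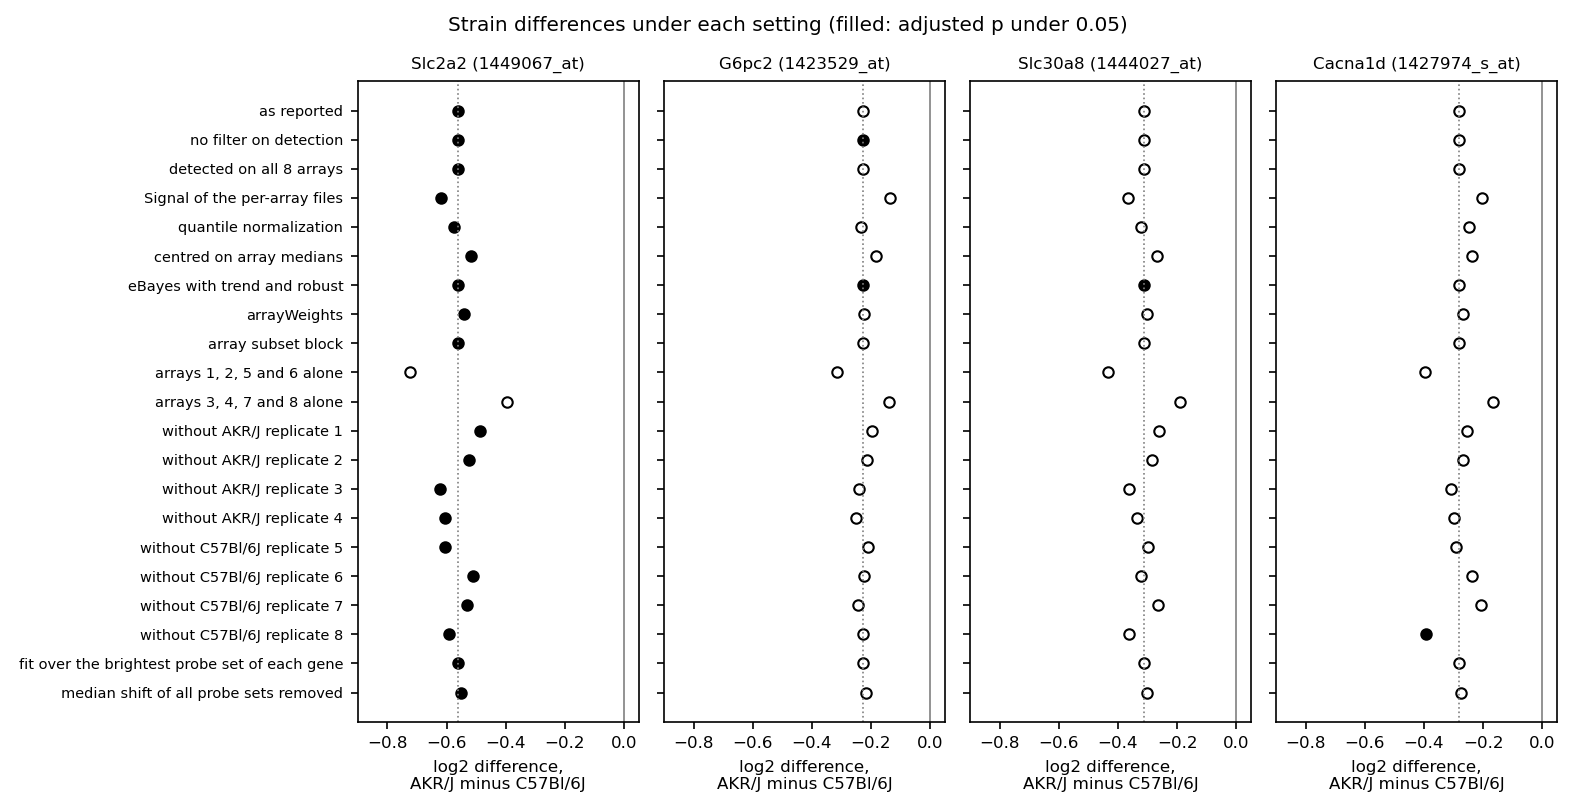
The x axis is the log2 difference, AKR/J minus C57Bl/6J, of 4 probe sets and the y axis lists the processing settings; filled points have an adjusted p under 0.05 and the dotted line is the value as reported. Slc2a2 is filled in all settings but the pair with 2 arrays per strain (-0.72 and -0.40), and every point of the 4 panels lies below 0.

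Among all tested genes, those whose profile over the 8 arrays came closest to Slc2a2, each profile centred on its own mean, were Ift81 (root mean square distance 0.072), Samhd1 (0.076) and Serpinb9 (0.077). Their log2 differences were -0.47, -0.45 and -0.44. Of the other members, Slc30a8 was nearest to Slc2a2 (0.160), then Cacna1d (0.187) and G6pc2 (0.209), and Trpm5 was farthest (0.444). These distances describe 8 arrays and carry the strain difference itself.

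Other genes of glucose-stimulated insulin release were examined in 8 lists. Without the 7 members these held 133 genes, of which 120 had a probe set and 69 were tested. Of the 69, 3 were higher in AKR/J and 6 lower, against 7.79% and 8.53% of all 10891 genes by their brightest probe set. The calls of these lists were fewer with 2 arrays per strain, as in arrays 1, 2, 5 and 6 (0 higher and 3 lower) or 3, 4, 7 and 8 (0 and 0). In the list of glucose entry and phosphorylation, 0 of 9 other tested genes passed; by unadjusted p under 0.05 there were 3, all higher in AKR/J (Txnip, G6pc3 and Slc2a8), where 16% of all genes were higher and 16.9% lower by that measure. Txnip, a glucose-induced thioredoxin inhibitor, averaged 13.26 ± 0.42 on AKR/J arrays and 12.45 ± 0.51 on C57Bl/6J arrays (adjusted p = 0.103; 0.0272 with the array split as a term and 0.0454 without array 6), and the fructose transporter gene Slc2a5 at 10.10 ± 0.08 and 9.98 ± 0.07 (0.299). The ubiquitous phosphatase gene G6pc3 differed by 0.34 (adjusted p = 0.0527), opposite in sign to G6pc2. The median of the 9 was 0.13, against 0.00 over all genes.

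**Figure D4:**
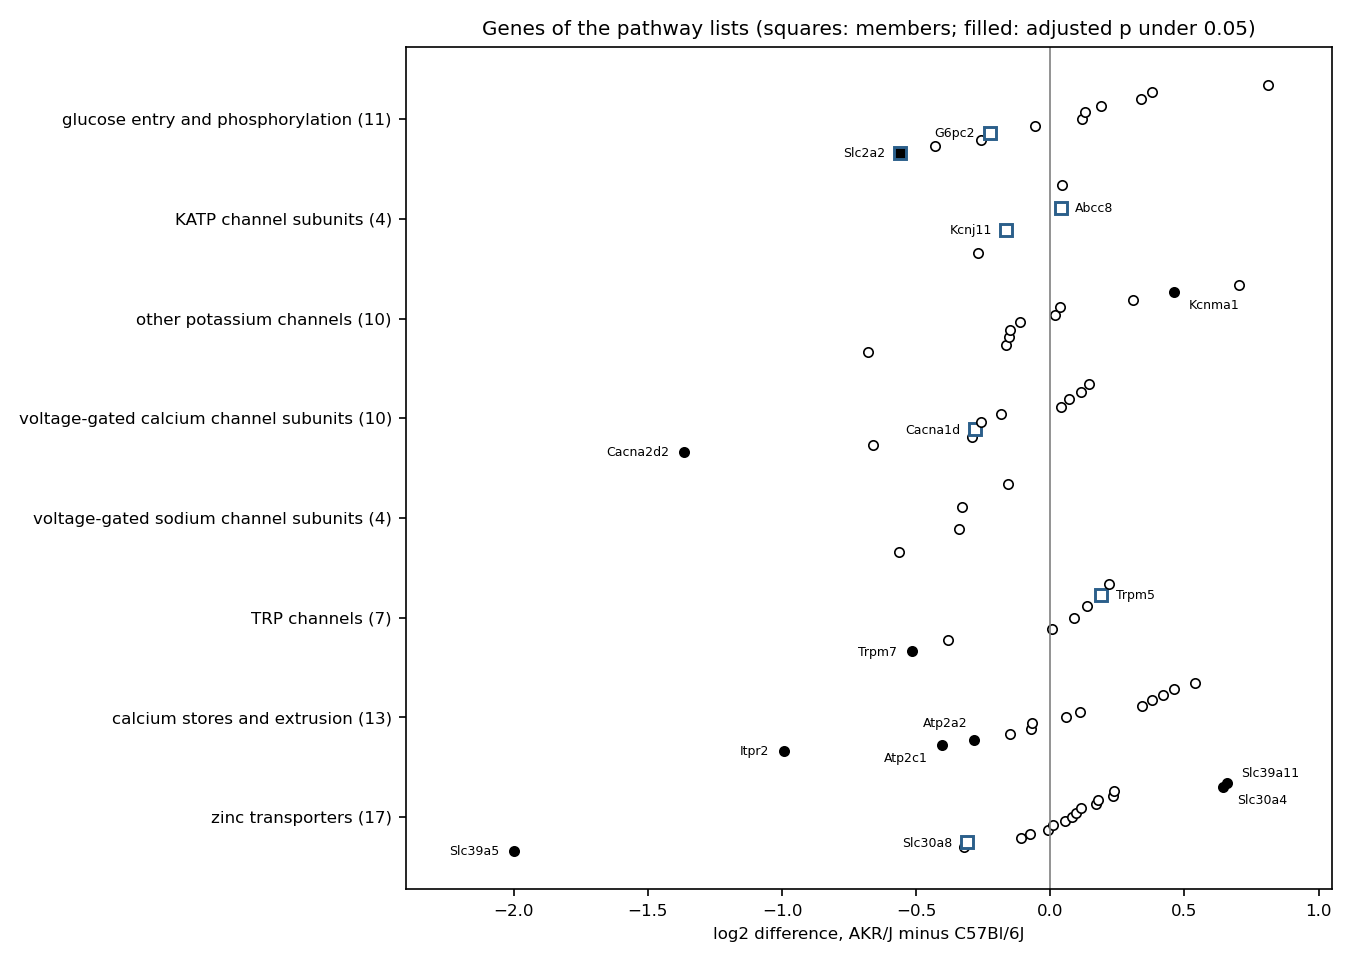
Each point is a tested gene, placed by its log2 difference, AKR/J minus C57Bl/6J, on the x axis and by its list on the y axis (number tested in brackets; heights within a list only separate the points); squares are the 7 member genes and filled points have an adjusted p under 0.05. Slc2a2 is the only filled square, and among the filled circles Slc39a5 lies farthest to the left and Slc39a11, at 0.66, farthest to the right.

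Few channel genes passed the adjusted threshold. The vascular KATP subunits Abcc9 (6.50 ± 0.10 and 6.46 ± 0.27) and Kcnj8 (3.18 ± 0.29 and 3.45 ± 0.29, detected on 2 of 4 AKR/J arrays) did not pass (adjusted p = 0.864 and 0.374). Of 10 other tested potassium channel genes 1 was higher in AKR/J, Kcnma1, the large-conductance calcium-activated channel (8.29 ± 0.13 and 7.83 ± 0.19, 1.38-fold, adjusted p = 0.0277). With Signals the Kcnma1 difference was 0.23 (adjusted p = 0.349), and it also missed the threshold without array 2, 4 or 5 (0.0716, 0.0667 and 0.0664). Of 9 other tested calcium channel subunits 1 was lower in AKR/J, the auxiliary subunit Cacna2d2 (4.74 ± 0.20 and 6.10 ± 0.39, 2.58-fold higher in C57Bl/6J, adjusted p = 0.00297), which was detected on 2 of 4 AKR/J arrays and did not pass with Signals (0.0819). Of 4 sodium channel subunits 0 passed. By unadjusted p under 0.05 there were 3 lower and 0 higher, beside 4 lower and 0 higher among the calcium channel subunits, against the shares of all genes given above. The brightest were Scn9a (8.43 ± 0.12 and 8.76 ± 0.24, adjusted p = 0.124; 0.0330 with Signals and 0.0222 without array 5) and Scn3a (5.74 ± 0.28 and 6.31 ± 0.35, 0.104), pores of the beta cell sodium current. The list's median was -0.33. Of 6 other tested TRP channel genes 1 was lower in AKR/J, Trpm7, a magnesium-permeable channel with a kinase domain (7.73 ± 0.22 and 8.25 ± 0.18, 1.43-fold higher in C57Bl/6J, adjusted p = 0.0383). It did not pass with Signals (0.137) or without array 1, 2, 3, 5, 6 or 8 (0.0688 to 0.0919).

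Of 13 tested genes of calcium stores and extrusion 3 were lower and 0 higher in AKR/J; by unadjusted p under 0.05 there were 3 lower and 4 higher. Itpr2, a receptor for inositol trisphosphate on the endoplasmic reticulum, was at 5.98 ± 0.37 and 6.97 ± 0.10 (1.99-fold higher in C57Bl/6J, adjusted p = 0.00800). Its probe set was detected on 3 of 4 AKR/J arrays. Atp2c1, a calcium pump of the Golgi, was at 8.94 ± 0.05 and 9.34 ± 0.10 (1.32-fold, adjusted p = 0.00819; 0.153 with Signals). Atp2a2, the SERCA2 pump that fills the endoplasmic reticulum, was at 12.81 ± 0.05 and 13.09 ± 0.09 (1.22-fold, adjusted p = 0.0288). It did not pass without array 1, 2, 4, 6 or 8 (0.0631 to 0.0772) or with centring on array medians (0.0649). The list's median was 0.06.

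Zinc transporter genes went both ways. Of 16 tested besides Slc30a8, 2 were higher in AKR/J and 1 was lower; by unadjusted p under 0.05 there were 3 higher and 2 lower. Slc30a4 (ZnT4), an exporter of cytosolic zinc into vesicles, read 9.90, 9.90, 9.90 and 9.95 in AKR/J and 9.28, 9.09, 9.42 and 9.29 in C57Bl/6J. The arrays did not overlap, and the 1.56-fold excess in AKR/J passed (adjusted p = 0.00143), though with Signals the difference was 0.32 (0.187) in place of 0.64. Slc39a11 (ZIP11), a zinc importer, was at 8.16 ± 0.29 and 7.51 ± 0.27 (1.58-fold higher in AKR/J, adjusted p = 0.0424). It did not pass with Signals (0.0904) or without array 1, 2, 4, 6, 7 or 8 (0.0503 to 0.107). Slc39a5 (ZIP5), a basolateral zinc importer that acinar cells express, read 3.25, 3.43, 4.46 and 3.62 in AKR/J and 5.63, 5.39, 6.00 and 5.73 in C57Bl/6J (3.99-fold higher, adjusted p = 0.00195). It was detected on 2 of 4 AKR/J arrays. The acinar markers given above were also lower in AKR/J, and a link between them and Slc39a5 was not tested. The median of the 16 was 0.09.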

How the data were processed

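Islet RNA of 2 mouse strains was measured on 8 arrays, grouped by the strain in the sample titles. Intensity in the deposited value table is linear; GCRMA is the method the submitters' processing notes name, its version not given in the sources used here. The deposited per-array files hold an intensity, Signal, and a detection p-value, per the file headers. GCRMA values were log2-transformed without further normalization. Probe sets detected (p under 0.05) on at least 4 of 8 arrays were fitted with limma (lmFit, eBayes; two-sided; Benjamini-Hochberg over all 20772). Signals were floored at the 5th percentile, log2-transformed and quantile normalized. Genes in lists took their brightest tested probe set. Each column of the table correlated best with its own array's Signals.

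Members and lists were chosen with earlier results of these data known. Named are all member probe sets, up to 4 called genes per list by smallest p or else the 2 brightest, and the 3 genes nearest each called member; marker genes and genes passing an unadjusted p were named after their values were seen. Alternatives changed the filter, the values, the normalization, the variance model, array weights and the arrays used. The fit was tested on simulated data. R 4.3.3, limma 3.58.1, Python 3.11.15 and matplotlib 3.10.9 were used.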

Additional observations from a re-analysis of the deposited data

Results flagged for a closer look

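Of 54 groups of 4 arrays (12 member probe sets and 15 named pathway genes in each strain), 4 held an array far from the other 3, where chance gives about 1 in 20. Trpm5 1449224_at stood at 7.29 on C57Bl/6J array 7 against 6.33 to 6.42 on the other arrays of that strain. Scn9a stood at 8.26 on AKR/J array 3 against 8.47 to 8.51. Atp2c1 stood at 8.86 on AKR/J array 1 against 8.96 to 8.98. Slc30a4 stood at 9.95 on AKR/J array 4, with the other AKR/J arrays level at 9.90.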

How the results depend on the processing

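Slc2a2 stayed lower in AKR/J in 20 of 20 alternatives and past the threshold in 18. It missed with arrays 1, 2, 5 and 6 alone (-0.72) and 3, 4, 7 and 8 alone (-0.40). Alternatives that changed only the filter, the variance model, the probe sets fitted or the array split as a term left the difference at -0.56. Their sign was thus fixed in advance, and only their adjusted p could change. G6pc2 (-0.23) gained the threshold with no filter and with trend and robust variance, Slc30a8 (-0.31) with trend and robust variance, and Cacna1d 1427974_s_at without C57Bl/6J array 8; leaving out 1 array its difference ran from -0.39 to -0.21. The cause of these changes was not tested. Member probe sets lower in AKR/J numbered 1 as reported, 2 with no filter, 3 with trend and robust variance, 0 with either set of 4 arrays and 1 to 2 with 1 array left out. Pathway genes higher in AKR/J numbered 3 as reported, 5 with quantile normalization, with centring on array medians or with the median shift of all probe sets removed, 0 with either set of 4 arrays and 1 (without array 2 or 4) to 5 (without array 3) with 1 array left out. Those lower numbered 6 as reported, 3 with arrays 1, 2, 5 and 6, 0 with arrays 3, 4, 7 and 8, and 4 to 7 with 1 array left out. Removing the median shift and fitting the brightest probe sets alone were chosen after seeing the data. No paired analysis was possible because no number in the titles is shared between the strains. Precision is limited by having 4 arrays a strain. Over all probe sets 2968 passed as reported, 1054 with arrays 1, 2, 5 and 6 and 403 with arrays 3, 4, 7 and 8. In the file headers the array names hold numbers between 11 and 19 (AKR/J) or between 31 and 39 (C57Bl/6J); if these mark an order, order and strain cannot be told apart.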

Other observations

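Within AKR/J, arrays 1 and 3 were both above arrays 2 and 4 on 5 of the 12 probe sets, those of Kcnj11 (2), Abcc8 (2) and Trpm5 1418783_at. The values were 7.32 and 7.47 against 6.49 and 6.90 for Kcnj11 1455417_at, 4.61 and 4.64 against 4.23 and 3.98 for 1450515_at, 12.72 and 12.73 against 12.46 and 12.68 for Abcc8 1455765_a_at, 11.18 and 11.21 against 10.86 and 10.90 for 1457066_at, and 9.76 and 10.02 against 9.64 and 9.54 for Trpm5. The pairs were chosen after these values were seen, and no test was made. The pattern was not counted over all tested probe sets, so it cannot be read as particular to these genes. Probe sets of 1 gene are not independent, and Kcnj11 and Abcc8 gave 2 each. On all 3 Trpm5 probe sets array 7 was the highest and array 8 the lowest of C57Bl/6J, from 9.91 to 9.03 for 1418783_at, from 8.33 to 7.27 for 1443413_s_at and from 7.29 to 6.33 for 1449224_at.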
